A study of Mus musculus with 32 samples.

Results

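Vitrified and fresh follicles were compared through the RNA of their germinal vesicle (GV) oocytes, with 1 library per oocyte. The comparison holds 8 of the 32 oocytes of the study, 4 whose follicle had been cultured fresh and 4 whose follicle had been vitrified beforehand, and they were chosen by the stage and treatment in their labels. All 8 came from wild-type mice (WT in the labels) and from preantral follicles grown in encapsulated culture (eIVFG in the study's design text) to the preovulatory stage, and were taken on day 8. The labelled difference between the groups is the vitrification that preceded culture. The age, mouse, culture and culture day of each oocyte are not given in the sources used here, so a difference in these cannot be told apart from the treatment, and a p-value measures the spread between these oocytes, part of which may be technical. Libraries were made with a SMART-Seq2 v4 Ultra Low Input kit for RNA, per the labels. The study's title asks whether vitrification leaves the oocyte transcriptome as it is in fresh culture.

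As background, a GV oocyte is arrested in prophase of the first meiotic division, with an intact nucleus, the germinal vesicle. While it grows it transcribes and stores messenger RNA, and once fully grown it is nearly silent, so the stored pool has to serve maturation, fertilization and the first steps of the embryo. Vitrification solidifies a tissue as a glass by rapid cooling with cryoprotectants, which avoids ice crystals. In a follicle vitrified at the preantral stage, the oocyte completes its growth in culture after warming. In whole-oocyte libraries, fewer RNA molecules of a gene and shorter poly(A) tails cannot be told apart where cDNA is primed on the tail, which as background is how kits of this kind work.

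No gene passed an adjusted p of 0.05 in edgeR's quasi-likelihood test, which called 0 of 10831 genes tested (0%). At an unadjusted p under 0.05 there were 180 genes (1.66%), of which 71 (0.656%) had a higher and 109 (1.01%) a lower mean in vitrified oocytes. This was not an excess but a smaller share than the 0.05 of genes expected under that threshold with no difference between groups. Why it was smaller was not tested. Every adjusted p was 1, so all values below are descriptions of genes that did not pass. The median log2 fold change over all genes tested was 0.0024, with 49.8% of genes below 0. The direction of every fold change given here is vitrified minus fresh, and CPM is a count scaled by the size of its library. Values per oocyte are listed in the order of oocytes 1 to 4 of each group.

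The absence of a call is not a measure of sameness, so the size of change that the data allow was read from the 95% interval of each log2 fold change. The SE behind the interval came from edgeR's quasi-likelihood fit, which pools information on spread over genes. A gene whose own values lie close together can thus still have a wide interval. The interval lay between −1 and 1 for 2052 genes (18.9%). That share was 0.0412% of the 4859 genes with a mean under 4 log2 CPM, 18% of the 3057 genes from 4 to 6, 49.3% of the 2133 genes from 6 to 8 and 57.4% of the 782 genes at 8 or above. Well-expressed genes were thus bounded far more tightly than scarce ones, and 6 or more log2 CPM was needed before about as many genes were bounded as not. The plot of fold change against expression level shows this narrowing.

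**Figure D1:**
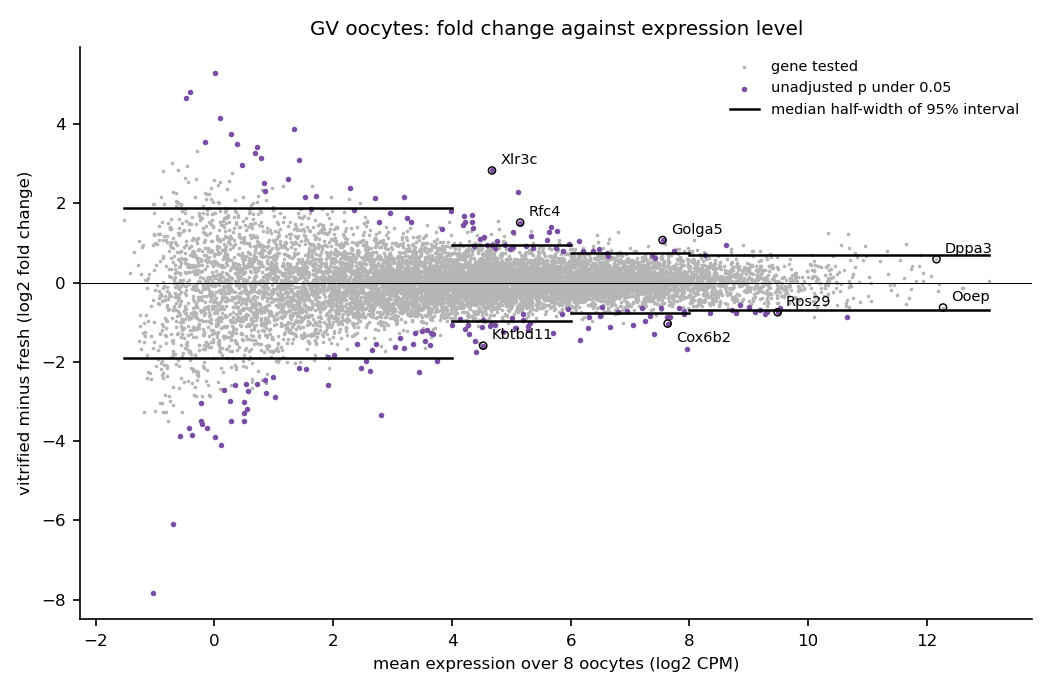
Log2 fold change (vitrified minus fresh) of 10831 genes against their mean log2 CPM over 8 oocytes; purple points are the 180 genes with an unadjusted p under 0.05, black steps the median half-width of the 95% interval in each range of levels, and circles mark 8 genes named in the text. The half-width narrows from 1.89 below 4 log2 CPM to 0.69 at 8 or above, and no gene passed the adjusted threshold.

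The 8 libraries held between 10357543 and 17687247 counts, with both the highest and the lowest among fresh oocytes. Genes with at least 1 count numbered 11910, 11392, 11879 and 11437 in fresh oocytes 1 to 4 and 10708, 11639, 11413 and 11584 in vitrified oocytes 1 to 4. The mean difference was −318.5 genes (two-sided exact permutation test over oocytes, p = 0.2571, Benjamini-Hochberg adjusted p = 0.7714 over 4 library measures). Vitrified oocyte 1 had the fewest, and the groups overlapped. Vitrified oocyte 1 stood apart from the other 7, with the highest value in 22.7% and the lowest in 27.9% of genes tested. It lay at −138.9 on the first principal component (38.3% of variance), where the others ran from −53.7 (fresh oocyte 3) to 69.6 (fresh oocyte 4). Spearman correlations of pairs ran from 0.838 to 0.936 within fresh, from 0.807 to 0.946 within vitrified and from 0.793 to 0.946 between the groups, with medians of 0.913, 0.903 and 0.918. The median over pairs of a fresh and a vitrified oocyte was thus not below the medians within either group. Values without vitrified oocyte 1 are given beside many of the results that it moved.

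The oocyte's own marker genes were all present, with 15 of 15 tested, and their summed level was 29730, 23470, 37900 and 31850 CPM in fresh and 36830, 23340, 23040 and 27280 CPM in vitrified oocytes. The table of counts holds only genes with a total of at least 10 over metaphase II oocytes. Some markers of the follicle's somatic cells, which touch the oocyte through the zona, are not in it, so their level cannot be read. Those in it were scarce. The 17 granulosa and cumulus markers in the table, of which 11 passed the filter on low counts, summed to 332, 198, 435 and 346 CPM in fresh and 288, 431, 269.8 and 271 CPM in vitrified oocytes. Of the 17, 0 were at 0 in all oocytes. Serpine2 was the most abundant of them in every oocyte. Inha, a granulosa hormone subunit, was at 53.1, 7.92, 1.37 and 8.26 CPM (fresh) against 0.922, 21.3, 59.7 and 8.12 CPM (vitrified), a range that the groups share. The 4 theca and stroma markers that passed, of 9 in the table, summed to between 44.7 and 108.3 CPM. The 3 blood, immune and vessel markers that passed, of 6, summed to between 20.9 and 51.4 CPM. The 3 surface epithelium markers that passed, of 5, summed to between 90.5 and 317.8 CPM. Of 13 cumulus expansion markers in the table, 2 passed, with sums between 2.19 and 19.2 CPM, and 5 were at 0 in all oocytes. In each of these lists the ranges of the fresh and vitrified oocytes overlapped.

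Among genes with a mean of at least 4 log2 CPM, the smallest p with a higher mean in vitrified oocytes belonged to Rfc4 (chr16:23113943-23127737 in GENCODE M21 on GRCm38, minus strand), a subunit of the clamp loader that places PCNA on DNA. It was at 24.5, 21.7, 29.5 and 12.8 CPM in fresh and 103, 60.2, 36.5 and 53.1 CPM in vitrified oocytes. All vitrified oocytes lay above all fresh ones, the highest being vitrified oocyte 1. Its log2 fold change was 1.52 ± 0.42 SE (unadjusted p = 0.00304), with an interval of 0.61 to 2.42. Ranbp2, a large nucleoporin of the cytoplasmic filaments of the nuclear pore, stood at 21.8, 5.66, 7.43 and 9.70 CPM in fresh and 55.2, 31.2, 29.3 and 28.3 CPM in vitrified oocytes. Its groups did not overlap either, and its log2 fold change was 1.69 ± 0.50 SE (unadjusted p = 0.00503). Golga5, a golgin that tethers vesicles in the Golgi, was at 124, 175, 75.2 and 159 CPM in fresh and 312, 330.5, 286 and 194 CPM in vitrified oocytes. This gene had no overlap either (log2 fold change 1.07 ± 0.33 SE, unadjusted p = 0.00584). Without vitrified oocyte 1 these 3 log2 fold changes were 1.18, 1.41 and 1.02. Groups did not overlap in 213 of 10831 genes (1.97%): 79 (0.729%) had all 4 vitrified values above all 4 fresh ones and 134 (1.24%) had the reverse. Under random group labels each direction is expected in 1 of 70 arrangements, and both shares were below that.

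Xlr3b and Xlr3c had the widest fold changes of the leading genes. They belong to a family of X-linked lymphocyte-regulated genes that lie close together on the X chromosome (chrX:73192207-73202930 on the plus strand and chrX:73254540-73265390 on the minus strand in GENCODE M21) and are nearly identical copies. To show how alike they are, the most similar stretch of 120 bases upstream of their starts is printed from RefSeq's promoter table (GRCm38.p6), at chrX:73191973-73192092 and chrX:73265497-73265616, with the only base that differs in capitals (T45C, counted from the first base printed, Xlr3b first).
Xlr3b: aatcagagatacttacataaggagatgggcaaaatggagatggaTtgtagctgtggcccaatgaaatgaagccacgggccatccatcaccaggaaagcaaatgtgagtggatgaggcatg
Xlr3c: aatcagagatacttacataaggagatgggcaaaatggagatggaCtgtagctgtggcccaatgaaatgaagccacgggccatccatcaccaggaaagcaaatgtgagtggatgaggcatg
The most similar pair of their GENCODE M21 transcripts, 1564 and 1584 bases long, was 99.1% identical. Reads can therefore fit both genes, and their treatment in the counting was not given in the sources used here, so the split between the copies is uncertain. Xlr3c was at 13.98, 24.3, 18.4 and 3.47 CPM in fresh and 319, 56.9, 9.87 and 42.9 CPM in vitrified oocytes. Vitrified oocyte 3 lay below 3 of the fresh oocytes, and vitrified oocyte 1 far above the rest. The log2 fold change was 2.83 ± 0.88 SE (unadjusted p = 0.0067), and 1.28 without vitrified oocyte 1. Xlr3b was at 20.3, 12.9, 37.1 and 14.8 CPM in fresh and 306, 23.1, 44.8 and 43.5 CPM in vitrified oocytes. Vitrified oocyte 1 was far above the rest for this copy too, and of the other 3 only vitrified oocyte 2 lay within the fresh range. Its log2 fold change was 2.30 ± 0.73 SE (unadjusted p = 0.00771) with all oocytes and 0.81 without that one.

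Vitrified oocyte 1 was the highest of the 8 in several other leading genes. Srp54c, a copy of the signal recognition particle subunit Srp54, was at 38.4, 21.8, 38.4 and 40.05 CPM in fresh and 193, 67.5, 45.2 and 58.6 CPM in vitrified oocytes. Its copies make its counts uncertain in the same way, and its log2 fold change was 1.39 ± 0.47 SE, or 0.72 without vitrified oocyte 1. Nt5m, a mitochondrial deoxyribonucleotidase, was at 14.4, 7.20, 15.99 and 16.3 CPM in fresh and 65.01, 22.1, 28.3 and 25.9 CPM in vitrified oocytes. Zfp638, a zinc finger protein that binds DNA and RNA, was at 64.2, 42.1, 56.9 and 42.5 CPM in fresh and 184, 85.5, 69.1 and 85.4 CPM in vitrified oocytes. Both had no overlap between groups, and their log2 fold changes were 1.39 ± 0.47 SE and 1.04 ± 0.37 SE, or 0.92 and 0.64 without vitrified oocyte 1. Atad2, a bromodomain ATPase of chromatin, was at 13.3, 14.9, 25.1 and 9.37 CPM in fresh and 45.4, 31.04, 29.8 and 27.9 CPM in vitrified oocytes. It too was without overlap (log2 fold change 1.10 ± 0.42 SE). Prxl2a, a peroxiredoxin-like protein, was at 18.8, 20.3, 31.2 and 17.6 CPM (fresh) against 49.1, 47.4, 85.3 and 29.5 CPM (vitrified). Here vitrified oocyte 3 was the highest, and the lowest vitrified oocyte overlapped the highest fresh one (log2 fold change 1.27 ± 0.41 SE). Ankhd1, an ankyrin repeat protein, was at 13.8, 25.8, 2.51 and 12.7 CPM (fresh) against 53.6, 29.3, 42.1 and 33.4 CPM (vitrified), with its groups apart (log2 fold change 1.52 ± 0.57 SE). Mtmr7, a myotubularin-type phosphatase, was at 47.2, 36.9, 61.8 and 40.6 CPM (fresh) against 143, 96.1, 51.5 and 75.8 CPM (vitrified), with overlap (log2 fold change 0.97 ± 0.37 SE).

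On the lower side the smallest p of all genes at 4 log2 CPM or above was that of Kbtbd11 (chr8:15011025-15033333 in GENCODE M21), a Kelch and BTB domain protein. It stood at 53.1, 29.1, 54.7 and 27.7 CPM in fresh and 14.4, 14.2, 16.3 and 9.62 CPM in vitrified oocytes. Every vitrified oocyte was below every fresh one with a clear gap. The log2 fold change was −1.59 ± 0.41 SE with an interval of −2.47 to −0.71 (unadjusted p = 0.00184). Cox6b2, the germ-cell isoform of a cytochrome c oxidase subunit (chr7:4751792-4753094), was at 336, 257, 324 and 231 CPM in fresh and 106, 165, 143 and 147 CPM in vitrified oocytes. Here too the groups were apart (log2 fold change −1.03 ± 0.28 SE, unadjusted p = 0.00257). Prss12, a secreted trypsin-like protease called neurotrypsin, was at 131, 91.05, 178 and 101.3 CPM in fresh and 49.6, 57.3, 18.1 and 58.2 CPM in vitrified oocytes. Vitrified oocyte 3 was the lowest and the groups did not overlap (log2 fold change −1.45 ± 0.40 SE, unadjusted p = 0.00323). Rnasek, a small membrane protein of the endosomal proton pump, was at 299, 202, 367 and 266 CPM in fresh and 45.4, 109, 177 and 126 CPM in vitrified oocytes. Again no oocyte crossed, and the log2 fold change was −1.31 ± 0.39 SE. Without vitrified oocyte 1 these 4 log2 fold changes were −1.62, −0.92, −1.49 and −1.04, so none of them rested on that oocyte.

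The other leading genes with a lower mean were of mixed function. Cpox, an enzyme of haem synthesis, was at 37.7, 36.7, 34.3 and 37.6 CPM in fresh and 16.02, 16.2, 4.38 and 16.6 CPM in vitrified oocytes. The 4 fresh values nearly coincided, 3 vitrified values nearly coincided at a lower level, and vitrified oocyte 3 was lower still (log2 fold change −1.46 ± 0.46 SE). Rdh12, a retinol dehydrogenase, was at 32.6, 52.7, 56.8 and 107 CPM (fresh) against 20.3, 28.1, 26.4 and 33.4 CPM (vitrified), with an overlap of a single vitrified oocyte (log2 fold change −1.20 ± 0.41 SE). Fkbp8, a mitochondrial immunophilin that binds Bcl2, was at 105, 74.1, 119.5 and 54.1 CPM (fresh) against 30.4, 13.7, 52.1 and 49.7 CPM (vitrified). Dhx16, a splicing helicase, was at 60.4, 43.4, 47.2 and 58.5 CPM (fresh) against 10.5, 26.3, 36.1 and 21.2 CPM (vitrified). Neither of the last pair overlapped, and their log2 fold changes were −1.27 ± 0.44 SE and −1.15 ± 0.41 SE. Smoc2, a secreted calcium-binding matrix protein, was at 123.1, 65.6, 195 and 249 CPM (fresh) against 66.97, 62.7, 94.01 and 69.1 CPM (vitrified). Ppp1r11, an inhibitor of protein phosphatase 1, was at 314, 178, 397 and 230.3 CPM (fresh) against 172, 147, 162 and 138 CPM (vitrified). Sult5a1, a sulfotransferase, was at 52.8, 57.9, 31.5 and 92.5 CPM (fresh) against 28.6, 21.6, 27.4 and 33.2 CPM (vitrified). For Smoc2 and Sult5a1 the lowest fresh oocyte was within the vitrified range. The 3 log2 fold changes were −1.11 ± 0.39 SE, −0.85 ± 0.30 SE and −1.08 ± 0.39 SE. The plot of the 24 leading genes shows each oocyte.

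**Figure D2:**
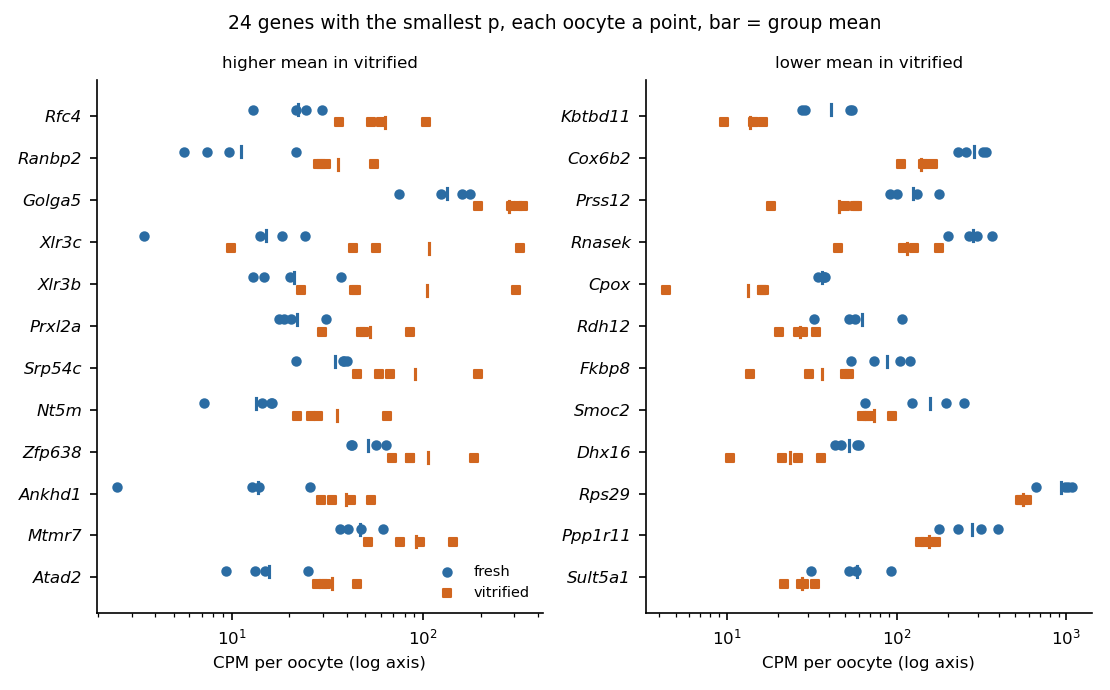
CPM (log axis) of the 24 genes with the smallest p among those at 4 log2 CPM or above, 12 with a higher and 12 with a lower mean in vitrified oocytes; circles are 4 fresh and squares 4 vitrified oocytes, and short bars are group means. Kbtbd11, Cox6b2 and Cpox have separate groups, while the highest point of Xlr3c and Xlr3b is vitrified oocyte 1 at 319.2 and 306.0 CPM.

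Groups were apart in some further genes too, and in Mcur1 both were compact. Mcur1, a regulator of the mitochondrial calcium uniporter, was at 128, 133, 158 and 136 CPM in fresh and 207, 238, 208 and 196 CPM in vitrified oocytes (log2 fold change 0.61 ± 0.26 SE). Sh3glb1, an endophilin of mitochondrial and autophagic membranes, was at 16.9, 19.5, 17.5 and 16.1 CPM in fresh and 44.1, 24.8, 39.5 and 25.7 CPM in vitrified oocytes. Tial1, an RNA-binding protein of stress granules, was at 27.01, 13.7, 14.7 and 24.1 CPM in fresh and 40.2, 34.6, 35.2 and 35.3 CPM in vitrified oocytes. All 3 were higher in every vitrified oocyte than in any fresh one, and the last pair had log2 fold changes of 0.94 ± 0.38 SE and 0.87 ± 0.38 SE. On the lower side, Wbp11, a splicing factor, was at 89.6, 71.1, 70.6 and 81.9 CPM in fresh and 44.8, 51.5, 56.4 and 43.98 CPM in vitrified oocytes. Pex19, a receptor for peroxisomal membrane proteins, was at 19.9, 23.4, 19.3 and 36.2 CPM in fresh and 10.6, 11.3, 14.2 and 15.7 CPM in vitrified oocytes. Their log2 fold changes were −0.67 ± 0.29 SE and −0.93 ± 0.42 SE, and neither gene passed the adjusted test. Sem1, a small proteasome lid subunit, was among the 10 genes with the narrowest intervals and still had separate groups. It was at 572, 571, 584 and 522 CPM (fresh) against 445, 370.0, 364 and 349 CPM (vitrified) (log2 fold change −0.56 ± 0.25 SE, interval −1.09 to −0.023).

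Genes of cytosolic ribosomal proteins, the structural proteins of the ribosome, were on the lower side in vitrified oocytes. Of 82 tested, 72 had a log2 fold change below 0 and 10 above, with a median of −0.45, where 49.8% of all genes were below 0. The summed level was 29720, 28260, 31380 and 27740 CPM in fresh and 20060, 19940, 27820 and 23740 CPM in vitrified oocytes. Fresh oocytes lay close together, vitrified oocytes 1 and 2 were lowest, and vitrified oocyte 3 reached the fresh range. In 7 of the 82 genes (among them Rpl36a, Rpl38, Rps13 and Rps29) every vitrified value was below every fresh one, a state that 1.24% of all genes shared, and in 0 every vitrified value was above. The median stayed below 0 with any 1 oocyte, or fresh oocyte 3 and vitrified oocyte 1 together, left out (−0.60 to −0.27), and was −0.32 without vitrified oocyte 1. Ribosomal protein genes have many processed copies in the genome, and the treatment of reads that fit several copies was not given in the sources used here.

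Rps29, a small subunit protein with a zinc finger, was at 1023, 1076, 980.0 and 666 CPM in fresh and 535, 540.4, 565 and 589.6 CPM in vitrified oocytes. The 4 vitrified values lay within a narrow band below the lowest fresh value, and the log2 fold change was −0.75 ± 0.26 SE (unadjusted p = 0.0143). Rps13, another protein of the small subunit, was at 911, 669.9, 1053 and 680.0 CPM in fresh and 380.2, 545, 455 and 600.2 CPM in vitrified oocytes. Of the large subunit proteins, Rpl36a was at 166, 163, 169 and 144 CPM (fresh) against 65.1, 96.5, 114 and 116 CPM (vitrified). Rpl38 was at 209.8, 199, 178 and 148 CPM (fresh) against 113, 102, 133 and 127 CPM (vitrified). In each the highest vitrified oocyte stayed below the lowest fresh one, with log2 fold changes of −0.74 ± 0.28 SE, −0.71 ± 0.29 SE and −0.63 ± 0.27 SE. On the other side of 0 were Rpl39 at a log2 fold change of 0.71 and Rpl4 at 0.42.

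Nuclear genes of the respiratory chain, which moves electrons from NADH to oxygen in the inner mitochondrial membrane, also lay mostly below 0. For complex I, the NADH dehydrogenase, it was 30 of 36 subunits, with a median of −0.28. Their summed levels were 9940, 8631, 12980 and 8828 CPM in fresh and 10330, 7600, 7676 and 7538 CPM in vitrified oocytes. The sums overlapped, since fresh oocyte 3 and vitrified oocyte 1 were each the highest of their group. For complex IV, cytochrome c oxidase, it was 15 of 16 (median −0.46), for complex III, cytochrome bc1, 7 of 8 (median −0.39), and for the 3 tested genes of complex II, succinate dehydrogenase, 0. Complex IV genes summed to 6355, 5865, 8545 and 5480 CPM in fresh and 5474, 4507, 4369 and 4828 CPM in vitrified oocytes. Complex III genes summed to 2696, 2692, 3321 and 2557 CPM in fresh and 2415, 1910, 2400 and 2050 CPM in vitrified oocytes. In both the lowest fresh sum was above the highest vitrified sum, though for complex IV vitrified oocyte 1 came within a few CPM of it. Left-out oocytes moved the medians from −0.41 to −0.16 for complex I, −0.58 to −0.26 for complex IV and −0.43 to −0.20 for complex III. Without vitrified oocyte 1 they were −0.41, −0.54 and −0.20.

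Among complex I genes, Ndufs5, a subunit of the intermembrane side, was at 406, 349.5, 573 and 378 CPM in fresh and 273, 275, 198 and 264 CPM in vitrified oocytes. All vitrified oocytes were below all fresh ones, and the log2 fold change was −0.76 ± 0.28 SE (unadjusted p = 0.0169). Ndufa2, an accessory subunit of the matrix arm, was at 879.8, 928, 995 and 948 CPM in fresh and 422, 492, 910.2 and 568 CPM in vitrified oocytes. Fresh oocytes sat close to one another, and vitrified oocyte 3 was level with them while the other three were lower (log2 fold change −0.65 ± 0.30 SE). Cox8a, the common isoform of a small complex IV subunit, was at 444, 458, 449 and 462 CPM in fresh and 188, 307, 337 and 368 CPM in vitrified oocytes. Its fresh values were near-equal and did not overlap the vitrified ones (log2 fold change −0.60 ± 0.28 SE). Micos10, which shapes the cristae that carry the chain, was at 323, 312, 374 and 315 CPM in fresh and 223, 267, 240.5 and 251 CPM in vitrified oocytes. Again there was no overlap (log2 fold change −0.43 ± 0.25 SE). Mitochondrial ribosomal proteins were split, with 44 of 76 below 0 and a median of −0.068, or −0.22 without vitrified oocyte 1. Mrps21, a small subunit protein, was at 307, 220.1, 309 and 195 CPM (fresh) against 169.7, 184, 192 and 141 CPM (vitrified) (log2 fold change −0.59 ± 0.28 SE). Mrps7, among the genes with the narrowest intervals, was at 283, 255, 276 and 302 CPM (fresh) against 271, 274, 270.5 and 332 CPM (vitrified) (log2 fold change 0.040 ± 0.25 SE).

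Enzymes that feed the chain did not share that side. In the list of pyruvate, citric acid cycle and glucose genes 27 of 39 were above 0 (median 0.22, and 0.12 without vitrified oocyte 1). Ldhb, a lactate dehydrogenase subunit and one of the most abundant messages of these libraries, was at 2917, 1369, 8787 and 2997 CPM in fresh and 10090, 4102, 1423 and 5834 CPM in vitrified oocytes. The highest values were those of vitrified oocyte 1 and fresh oocyte 3, and the log2 fold change of 0.42 ± 0.59 SE became −0.085 without vitrified oocyte 1. Genes of mitochondrial shape and biogenesis were balanced at 12 above and 13 below 0, and so were the mitochondrial carriers at 17 and 16.

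**Figure D3:**
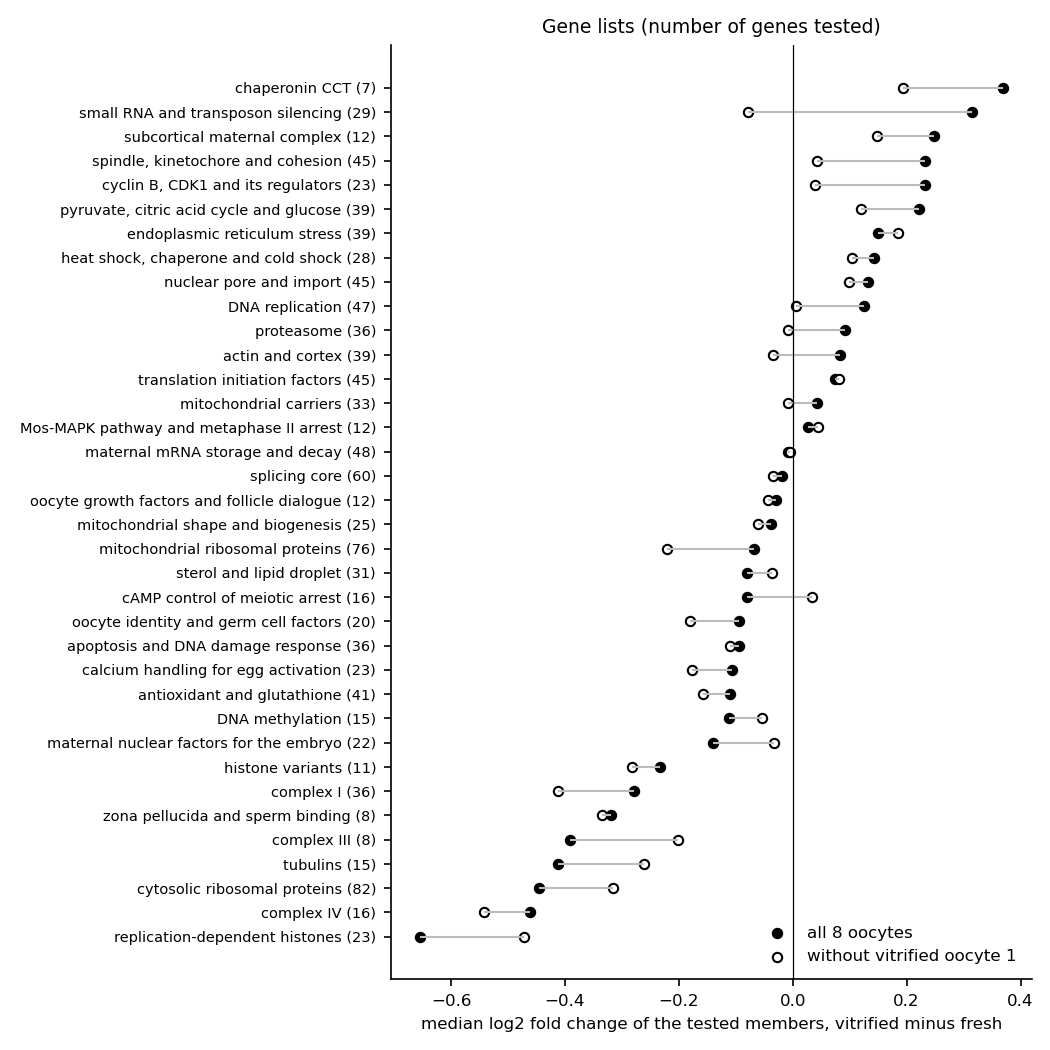
Median log2 fold change (vitrified minus fresh) of the tested members of 36 gene lists, with the number tested in brackets; filled points use all 8 oocytes and open points leave out vitrified oocyte 1. Medians run from −0.65 for replication-dependent histones to 0.37 for chaperonin CCT, and those of small RNA silencing, spindle and cyclin B genes move to within 0.1 of 0 without that oocyte. The small RNA list also holds the Xlr3, Xlr4 and Xlr5 genes.

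Histone genes of the replication-dependent clusters, whose messages normally end in a stem-loop without a poly(A) tail, had 19 of 23 log2 fold changes below 0. The median was −0.65, or −0.47 without vitrified oocyte 1, and −0.89 to −0.35 over all left-out oocytes. Their summed level was low, at 319.6, 266, 523 and 224 CPM in fresh and 282, 216, 241 and 203 CPM in vitrified oocytes. Fresh oocyte 3 stood above the other 7. H3c6 was at 4.62, 1.65, 15.2 and 1.90 CPM (fresh) against 0.922, 0.822, 0.219 and 2.50 CPM (vitrified) (log2 fold change −2.37 ± 1.07 SE). H2bc12 was at 20.8, 26.03, 54.04 and 11.4 CPM (fresh) against 17.3, 11.00, 18.1 and 12.1 CPM (vitrified) (log2 fold change −0.94 ± 0.50 SE). Both were highest in fresh oocyte 3 and had overlapping groups. Of the replication-independent variants, 10 of 11 were below 0 (median −0.23). H1f8, the oocyte linker histone, was at 4744, 4578, 9178 and 8805 CPM in fresh and 5013, 6860, 4974 and 7878 CPM in vitrified oocytes. Both groups covered the same range (log2 fold change −0.14 ± 0.34 SE). Tubulin genes were 12 of 15 below 0, with a median of −0.41, or −0.26 without vitrified oocyte 1. In that oocyte their sum was the lowest of all, 1243 CPM against 1927 to 3811 CPM in the others. Tubb2a, a beta-tubulin, was at 269, 254, 144 and 347 CPM (fresh) against 129.5, 141, 187 and 224 CPM (vitrified) (log2 fold change −0.57 ± 0.33 SE).

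Genes that make an oocyte an oocyte had overlapping levels in both groups. In the zona pellucida, the glycoprotein coat that binds sperm, Zp1 was at 524, 678, 282 and 929.6 CPM in fresh and 173, 536, 698 and 654 CPM in vitrified oocytes. Zp2 was at 1105, 1089, 918 and 1742 CPM in fresh and 2316, 1381, 1220 and 1117 CPM in vitrified oocytes. Zp3 was at 1579, 1528, 1555 and 3615 CPM in fresh and 1705, 1539, 1371 and 1686 CPM in vitrified oocytes. Zp1 was lowest in vitrified oocyte 1, where Zp2 was highest, and Zp3 was nearly equal in 7 oocytes and higher in fresh oocyte 4. The log2 fold changes were −0.23 ± 0.44 SE, 0.31 ± 0.33 SE and −0.39 ± 0.33 SE. Gdf9 and Bmp15, the growth factors with which the oocyte steers its granulosa cells, had overlapping groups. Gdf9 was at 4306, 3709, 2238 and 5920 CPM (fresh) against 1581, 2908, 4289 and 3527 CPM (vitrified), and Bmp15 was at 1494, 1544, 1243 and 868 CPM (fresh) against 1725, 1250, 1383 and 961 CPM (vitrified). Their log2 fold changes were −0.39 ± 0.38 SE and 0.047 ± 0.30 SE, with intervals of −1.21 to 0.42 and −0.60 to 0.69. Bmp6, a related ligand, was at 46.4, 46.8, 39.9 and 82.98 CPM in fresh and 87.4, 86.9, 86.1 and 79.7 CPM in vitrified oocytes. In that gene 3 fresh oocytes lay low and the other was level with all the vitrified ones (log2 fold change 0.65 ± 0.32 SE). Oosp1, an oocyte-secreted protein, was at 4081, 3668, 5049 and 3319 CPM (fresh) against 1336, 3659, 3023 and 3048 CPM (vitrified) (log2 fold change −0.54 ± 0.34 SE).

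The subcortical maternal complex is a protein assembly under the oocyte membrane that the early embryo needs. Its list, which also holds other oocyte Nlrp genes, had 7 of 12 above 0 and a median of 0.25. The members did not lie on one side. All 7 above 0 were Nlrp genes, from 0.19 (Nlrp9b) to 0.94 (Nlrp9a). Ooep, Padi6, Tle6, Khdc3 and Zbed3 were below 0, from −0.63 (Ooep) to −0.14 (Khdc3). Ooep was at 6500, 4370, 10210 and 4441 CPM in fresh and 3367, 3675, 3919 and 5552 CPM in vitrified oocytes. Nlrp5 was at 469.8, 468, 195 and 789 CPM in fresh and 626, 484, 474 and 790.5 CPM in vitrified oocytes. Padi6 was at 1056, 1279, 1030 and 3220 CPM in fresh and 615, 1701, 1624 and 1634 CPM in vitrified oocytes. Ooep was highest in fresh oocyte 3, where Nlrp5 was lowest, and Padi6 was highest in fresh oocyte 4. The log2 fold changes were −0.63 ± 0.34 SE, 0.31 ± 0.38 SE and −0.24 ± 0.43 SE, while Tle6 was at −0.23 ± 0.42 SE and Khdc3 at −0.14 ± 0.39 SE. Of the other oocyte Nlrp genes in this list, Nlrp9a was at 388, 274, 252 and 332 CPM (fresh) against 1257, 371, 314 and 448 CPM (vitrified) (log2 fold change 0.94 ± 0.42 SE, and 0.28 without vitrified oocyte 1). Nlrp14 was at 1691, 1137, 1227 and 1982 CPM (fresh) against 3589, 1815, 1540 and 2488 CPM (vitrified) (log2 fold change 0.64 ± 0.34 SE, and 0.37).

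Among factors stored for the embryo's chromatin, 14 of 22 lay below 0 (median −0.14). That median was −0.30 to 0.056 over left-out oocytes and turned without fresh oocyte 2 or fresh oocyte 4. Npm2, the nucleoplasmin that unpacks sperm chromatin, was at 1933, 1539, 2844 and 2892 CPM (fresh) against 1104, 1478, 1644 and 2388 CPM (vitrified) (log2 fold change −0.48 ± 0.33 SE). Dppa3, which protects the maternal genome from loss of methylation in the zygote, was at 4984, 2060, 10120 and 3389 CPM in fresh and 21390, 3505, 1680 and 4395 CPM in vitrified oocytes. Vitrified oocyte 1 held far more than any other and fresh oocyte 3 came next. The log2 fold change of 0.59 ± 0.69 SE turned to −0.69 without vitrified oocyte 1. Of DNA methylation genes 10 of 15 were below 0 (median −0.11). That median was −0.35 to 0.14 over left-out oocytes, and above 0 without fresh oocyte 2, without fresh oocyte 4 and with GC content taken off (0.069). Dnmt1, the maintenance methyltransferase, was at 1263, 1361, 813 and 2134 CPM (fresh) against 625, 1017, 2166 and 1495 CPM (vitrified). Tet3, the zygotic dioxygenase, was at 671, 785, 360.4 and 666 CPM (fresh) against 318, 485, 519 and 464 CPM (vitrified). Groups overlapped in both, with log2 fold changes of −0.071 ± 0.40 SE and −0.47 ± 0.31 SE. Dnmt3a and its cofactor Dnmt3l, which lay down the methylation of the growing oocyte, had log2 fold changes of 0.15 ± 0.35 SE and −0.033 ± 0.36 SE. The related Dnmt3b was scarce but apart, at 20.02, 17.6, 17.1 and 24.1 CPM in fresh and 5.30, 4.93, 7.24 and 11.00 CPM in vitrified oocytes (log2 fold change −1.47 ± 0.47 SE, unadjusted p = 0.00864).

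Storage and decay of maternal messages showed no lean to either side, with 24 of 48 genes above 0, 24 below and a median of −0.0081. Zar1, which with Ybx2 holds dormant messages in the growing oocyte, was at 1223, 1423, 1105 and 2225 CPM (fresh) against 690.2, 992, 1593 and 1465 CPM (vitrified). Ybx2 was at 122.9, 176, 69.8 and 170.1 CPM (fresh) against 80.2, 75.2, 225 and 105 CPM (vitrified). The groups overlapped in both, with Zar1 lowest in vitrified oocytes 1 and 2 (log2 fold changes −0.33 ± 0.34 SE and −0.15 ± 0.41 SE). Btg4, an adaptor for the CCR4-NOT deadenylase that acts during maturation, was at 2652, 2389, 7042 and 3295 CPM in fresh and 3824, 4516, 2090 and 3301 CPM in vitrified oocytes. Fresh oocyte 3 was the highest and the other 7 were mixed (log2 fold change −0.16 ± 0.39 SE). Dicer1, which cuts the endogenous small RNAs of the mouse oocyte, was at 669, 559, 829.6 and 500.1 CPM in fresh and 382, 446, 466 and 386 CPM in vitrified oocytes. Its groups did not overlap (log2 fold change −0.61 ± 0.27 SE). The list of small RNA and transposon silencing genes as a whole had 20 of 29 above 0. It also holds the Xlr3, Xlr4 and Xlr5 genes of the X-linked family described above. All of these lay above 0, from 0.38 (Xlr3a) to 2.83 (Xlr3c), and a median without them was not computed. The median of that list was 0.31 with all oocytes and −0.079 without vitrified oocyte 1.

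Meiotic arrest and resumption were read through their regulators. Arrest is held by cAMP, which the receptor Gpr3 keeps high and the phosphodiesterase Pde3a removes. Gpr3 was at 35.8, 52.8, 23.8 and 50.5 CPM (fresh) against 5.19, 35.8, 56.7 and 27.7 CPM (vitrified). Pde3a was at 12.8, 22.02, 12.00 and 7.28 CPM (fresh) against 11.4, 17.8, 18.4 and 5.93 CPM (vitrified). Both genes overlapped between groups, with log2 fold changes of −0.38 ± 0.56 SE and −0.016 ± 0.53 SE. The 16 genes of the list had 5 above and 11 below 0, with a median of −0.080, or 0.034 without vitrified oocyte 1. Ccnb1, the cyclin that activates CDK1 for entry into division, was at 922, 988, 1829 and 467 CPM in fresh and 3147, 1517, 574 and 934 CPM in vitrified oocytes. Ccnb2, its paralog, was at 177, 143, 342 and 283 CPM (fresh) against 864, 276, 206 and 317 CPM (vitrified). Vitrified oocyte 1 was highest for both. The log2 fold changes of 0.55 ± 0.51 SE and 0.82 ± 0.45 SE became −0.060 and 0.17 without it. Wee2, the oocyte kinase that restrains CDK1, was at 579.8, 552, 492 and 443 CPM (fresh) against 809, 689, 499 and 561 CPM (vitrified) (log2 fold change 0.31 ± 0.27 SE). Mos, the kinase that starts the MAPK pathway of metaphase arrest, was at 877, 1051, 1148 and 1451 CPM in fresh and 239, 1185, 1496 and 1199 CPM in vitrified oocytes. It was lowest in vitrified oocyte 1 and varied much less among the other 7 (log2 fold change −0.14 ± 0.44 SE, and 0.19 without it).

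Genes of the cyclin B and spindle lists lay mostly above 0, with 17 of 23 (median 0.23) and 35 of 45 (median 0.23). Without vitrified oocyte 1 the medians were 0.040 and 0.042. Mad2l1, a spindle checkpoint protein, was at 394, 282, 1129 and 265 CPM in fresh and 2040, 671, 249 and 422 CPM in vitrified oocytes. Pttg1, the securin that guards sister cohesion, was at 3032, 2305, 6320 and 3090 CPM in fresh and 15320, 3454, 1666 and 3536 CPM in vitrified oocytes. Vitrified oocyte 1 stood above the rest in both and fresh oocyte 3 came next. They had log2 fold changes of 0.71 ± 0.62 SE and 0.70 ± 0.59 SE that were −0.21 and −0.35 without vitrified oocyte 1. Aurkc, the Aurora kinase of meiosis, was at 100.9, 120.3, 108 and 173 CPM in fresh and 98.6, 272, 235 and 204 CPM in vitrified oocytes. Vitrified oocytes 2 to 4 were higher than the fresh ones, and vitrified oocyte 1 was the lowest (log2 fold change 0.69 ± 0.35 SE). Haus1, an augmin subunit of the spindle, was at 54.7, 46.9, 54.8 and 28.2 CPM (fresh) against 96.02, 44.6, 79.2 and 100.7 CPM (vitrified) (log2 fold change 0.79 ± 0.36 SE). Cdca8, the borealin of the chromosome passenger complex, had the narrowest interval of all genes at 6 log2 CPM or above, −0.47 to 0.59, and was at 379, 333, 407 and 382 CPM in fresh and 409, 359, 399 and 397 CPM in vitrified oocytes.

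**Figure D4:**
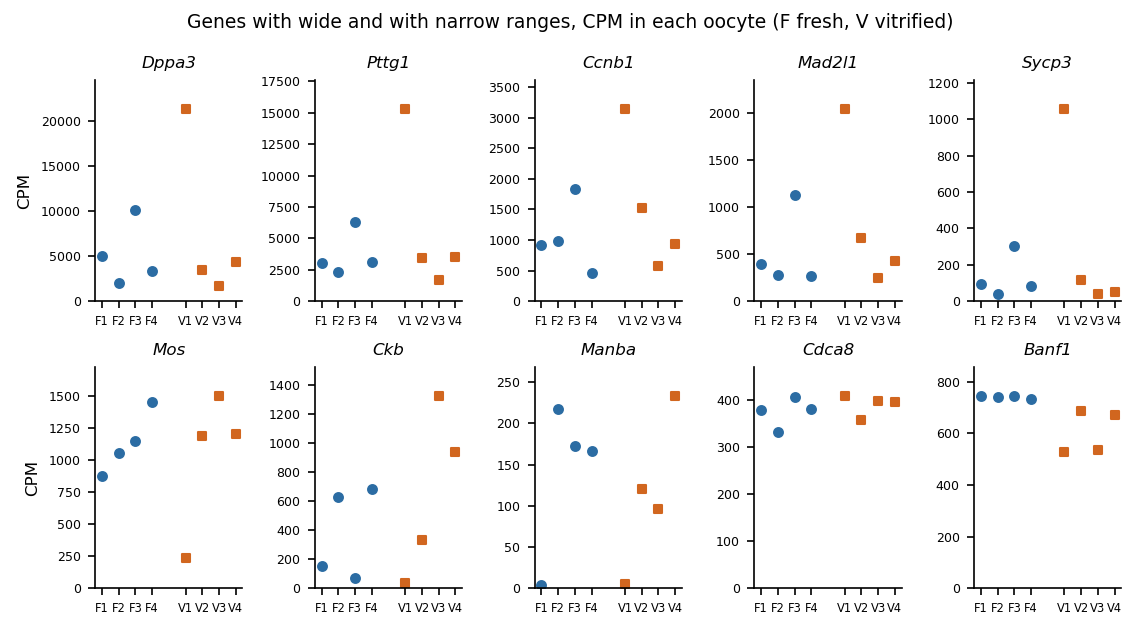
CPM in each of 4 fresh (F1 to F4) and 4 vitrified (V1 to V4) oocytes for 8 genes with a wide range or a part in meiosis and for 2 with a narrow range, Cdca8 and Banf1; each axis starts at 0. V1 is the highest oocyte for Dppa3, Pttg1, Ccnb1, Mad2l1 and Sycp3 and the lowest for Mos and Ckb, and Manba is near 0 in F1 and V1.

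Several genes varied widely between oocytes of 1 group. Sycp3, a lateral element protein of the synaptonemal complex, was at 95.8, 40.02, 306 and 83.1 CPM in fresh and 1058, 118, 36.95 and 52.7 CPM in vitrified oocytes. Fbxw24, an F-box protein of the oocyte, was at 2657, 1803, 6329 and 1520 CPM in fresh and 16640, 3171, 1641 and 2857 CPM in vitrified oocytes. Vitrified oocyte 1 was by far the highest in both. Ckb, the brain creatine kinase, was at 157, 629, 71.8 and 686 CPM in fresh and 36.1, 331, 1321 and 934 CPM in vitrified oocytes. The spread was wide in both groups, and vitrified oocyte 1 and fresh oocyte 3 were lowest. Manba, the lysosomal beta-mannosidase, was at 3.62, 217, 173 and 166 CPM in fresh and 4.96, 120.4, 96.7 and 233 CPM in vitrified oocytes. It was almost undetected in 1 oocyte of each group and well expressed in the other 6, the widest range of log2 CPM among genes at 6 or above. At the other end, Banf1, which binds the nuclear envelope to chromatin, was at 743, 742, 744 and 734 CPM in fresh and 526, 686, 535 and 672 CPM in vitrified oocytes. Its fresh values were nearly equal, and all vitrified values were below them (log2 fold change −0.29 ± 0.25 SE). Psmd1, a proteasome base subunit, was at 240.4, 244, 257 and 253 CPM (fresh) against 292, 234, 250.5 and 259 CPM (vitrified) (log2 fold change 0.057 ± 0.25 SE). Eif4e3, a cap-binding protein, was at 365, 477, 472 and 434 CPM (fresh) against 512, 516, 515 and 578 CPM (vitrified) (log2 fold change 0.28 ± 0.25 SE).

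Stress genes were read because vitrification exposes cells to cooling, warming and osmotic change. Of 28 heat shock, chaperone and cold shock genes, 19 were above 0 (median 0.14). Hspa8, the constitutive Hsc70, was at 446, 294, 544 and 921 CPM in fresh and 1157, 803, 478 and 884 CPM in vitrified oocytes (log2 fold change 0.59 ± 0.38 SE). Hspb1, the small heat shock protein Hsp27, was at 5.73, 35.6, 83.3 and 6.88 CPM in fresh and 3.00, 6.51, 9.26 and 8.50 CPM in vitrified oocytes. Hspb1 was high in 2 fresh oocytes and low in the remaining 6, so its log2 fold change of −2.26 ± 0.78 SE describes those 2. Of the cold shock RNA-binding proteins, Cirbp was at 112, 146, 201 and 189 CPM (fresh) against 65.2, 196, 169 and 219 CPM (vitrified), and Rbm3 was at 68.9, 59.5, 116 and 76.3 CPM (fresh) against 36.9, 93.05, 55.1 and 78.2 CPM (vitrified). Their log2 fold changes were 0.0024 ± 0.37 SE and −0.28 ± 0.37 SE, with intervals of −0.81 to 0.81 and −1.08 to 0.51. The chaperonin CCT, which folds actin and tubulin, had 6 of 7 subunits above 0 (median 0.37, and 0.19 without vitrified oocyte 1). Its subunit Cct8 was at 308, 275, 514 and 279 CPM (fresh) against 1281, 556, 267 and 375 CPM (vitrified) (log2 fold change 0.85 ± 0.45 SE, and 0.21).

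Of endoplasmic reticulum stress genes 28 of 39 were above 0 (median 0.15). Hspa5, the chaperone BiP, was at 140.4, 111, 75.4 and 202 CPM (fresh) against 215, 149.7, 113 and 109 CPM (vitrified). Ddit3, the transcription factor CHOP, was at 185, 217, 146 and 539 CPM (fresh) against 135, 346, 387 and 354 CPM (vitrified). Groups overlapped in both, with log2 fold changes of 0.15 ± 0.36 SE and 0.17 ± 0.44 SE. Antioxidant genes were 15 above and 26 below 0 (median −0.11). Sod1, the cytosolic superoxide dismutase, was at 724, 1067, 403 and 1075 CPM (fresh) against 318, 488, 907 and 601 CPM (vitrified), and the mitochondrial Sod2 was at 55.5, 71.6, 113 and 74.7 CPM (fresh) against 109, 83.7, 86.2 and 61.5 CPM (vitrified). Gpx4, which reduces lipid peroxides, was at 235, 160.4, 213 and 160.4 CPM (fresh) against 60.8, 148, 189 and 159.5 CPM (vitrified). None of these 3 had separate groups, and the log2 fold changes were −0.50 ± 0.39 SE, 0.11 ± 0.33 SE and −0.46 ± 0.35 SE. Prdx1, a peroxiredoxin, had a log2 fold change of 0.15 ± 0.33 SE. Gclm, the modifier subunit of glutathione synthesis, was apart and higher in vitrified oocytes at 25.2, 29.2, 25.5 and 22.6 CPM (fresh) against 47.03, 32.1, 41.4 and 34.5 CPM (vitrified) (log2 fold change 0.60 ± 0.34 SE). Txn1, thioredoxin, was apart and lower at 341, 371, 301 and 310.4 CPM (fresh) against 189, 251, 259 and 271 CPM (vitrified) (log2 fold change −0.45 ± 0.26 SE). Hmox2, the constitutive haem oxygenase, was at 54.5, 50.3, 68.8 and 85.99 CPM (fresh) against 158, 133, 81.8 and 77.03 CPM (vitrified) (log2 fold change 0.79 ± 0.34 SE).

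Cell death genes were 14 above and 22 below 0 of 36 tested (median −0.094). The median was −0.12 to 0.058 over left-out oocytes and above 0 without fresh oocyte 4 or vitrified oocyte 4. Bcl2l10, the abundant anti-apoptotic protein of the oocyte, was at 3890, 4698, 6430 and 5389 CPM in fresh and 4919, 4461, 3890 and 4214 CPM in vitrified oocytes. Both groups overlapped over a narrow range (log2 fold change −0.22 ± 0.28 SE, interval −0.83 to 0.38). Bax, the pore-forming effector, was at 60.2, 47.9, 73.7 and 65.9 CPM (fresh) against 49.2, 57.2, 75.5 and 51.2 CPM (vitrified). Trp53, the p53 gene, was at 24.2, 46.7, 41.1 and 27.3 CPM (fresh) against 15.3, 38.9, 34.5 and 39.1 CPM (vitrified). Groups overlapped in both, with log2 fold changes of −0.086 ± 0.31 SE and −0.12 ± 0.41 SE. Casp8, the initiator caspase of death receptors, was at 34.6, 32.5, 72.9 and 26.8 CPM in fresh and 242, 82.05, 32.1 and 56.3 CPM in vitrified oocytes. Mdm4, an inhibitor of p53, was at 1023, 1027, 2427 and 711 CPM in fresh and 7277, 2363, 1218 and 1300 CPM in vitrified oocytes. Vitrified oocyte 1 was the highest in both, and their log2 fold changes of 1.31 ± 0.57 SE and 1.23 ± 0.57 SE came to 0.45 and 0.33 without it. In 1 of the 36 genes, Mcl1, every vitrified value was above every fresh one, a state that 0.729% of all genes shared. Mcl1 had a log2 fold change of 1.74 and did not pass the adjusted test. In 0 of the 36 genes was every vitrified value below every fresh one.

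Nuclear pore and import genes had 29 of 45 above 0 (median 0.13, or 0.099 without vitrified oocyte 1), and 3 of them, against 0.729% of all genes, had every vitrified oocyte above every fresh one. These were Ranbp2, described above, Nup107, of the scaffold's Y complex, at 128, 154, 83.1 and 164 CPM (fresh) against 251, 229, 186 and 189 CPM (vitrified), and Nup93, of the inner ring, at 98.6, 139, 100.1 and 136 CPM (fresh) against 182, 145, 146 and 182 CPM (vitrified). The log2 fold changes of the latter pair were 0.69 ± 0.30 SE and 0.47 ± 0.28 SE. Of the remaining lists, DNA replication had 28 of 47 above 0, the proteasome 25 of 36 and translation initiation factors 31 of 45. It was 21 of 39 for actin and cortex genes, 27 of 60 for splicing core proteins, 13 of 31 for sterol and lipid droplet genes and 11 of 23 for calcium handling genes. Mos-MAPK genes had 6 of 12 above 0, oocyte growth factors 5 of 12, zona and sperm binding genes 1 of 8 and oocyte identity genes 8 of 20. Their medians ran from −0.32 for the zona list to 0.13 for DNA replication. Over left-out oocytes the zona median was −0.52 to 0.041, above 0 without fresh oocyte 4, and that of oocyte identity genes was −0.18 to 0.017, above 0 without fresh oocyte 3. Without vitrified oocyte 1 the DNA replication median was 0.0052, and those of the proteasome and of actin and cortex genes went from 0.091 and 0.083 to −0.0076 and −0.035. The medians of oocyte growth factors, Mos-MAPK, sterol and lipid droplet and splicing core genes also turned sign when some single oocytes were left out. In the edgeR fit 0 members of any list passed the adjusted test.

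Levels by base composition of transcripts differed more between the oocytes of a group than between the groups. Among 3574 genes with the lowest GC content the median log2 fold change was 0.12 and 40.6% of genes were below 0, while among 3574 genes with the highest GC content it was −0.092 and 59.3% were below 0. Over single oocytes, the median deviation of the GC-rich genes from their mean was 0.073, 0.27, −0.32 and 0.51 in fresh oocytes 1 to 4 and −0.82, −0.022, 0.42 and 0.24 in vitrified oocytes 1 to 4. Fresh oocyte 3 and vitrified oocyte 1 thus lay low and fresh oocyte 4 and vitrified oocyte 3 high, so the range within each group was wider than the difference between groups. The direction by GC content rested on single oocytes. Without vitrified oocyte 1 it turned, with medians of −0.10 in GC-poor genes (59.3% below 0) and 0.061 in GC-rich genes (45.5% below 0). Without fresh oocyte 4 the medians were 0.0057 and 0.058. With GC content taken off in the fit, an alternative added after the data were seen, 0 genes were called and the median of ribosomal protein genes was −0.39, that of complex IV −0.45 and that of complex I −0.16. Across short, middle and long transcripts, in sets of equal size, the medians were −0.023, 0.035 and −0.0073. Whether GC content has a part in the difference between groups was not tested.

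**Figure D5:**
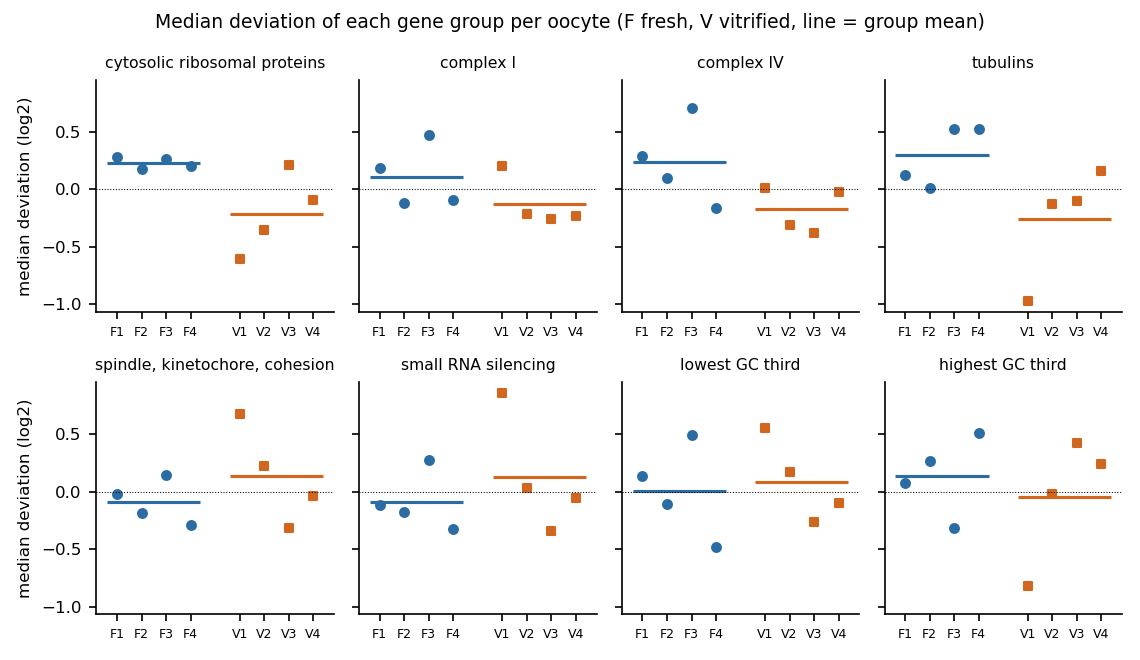
Median deviation of a gene group from its mean over 8 oocytes (log2 CPM), in fresh (F1 to F4, circles) and vitrified (V1 to V4, squares) oocytes, with lines at group means; the last panels show the genes with the lowest and with the highest GC content. Ribosomal proteins lie between 0.18 and 0.28 in all fresh oocytes, and V1 is at the edge of the panels for tubulins, spindle genes, small RNA genes and GC-rich genes.

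The spread between oocytes was wide in both groups. The biological coefficient of variation of edgeR was 61.9% in fresh and 70.6% in vitrified oocytes. Without fresh oocyte 3 the former was 58.5%, and without vitrified oocyte 1 the latter was 57.4%, so which group appeared more variable depended on a single oocyte. The SD of log2 CPM was larger in vitrified oocytes for 54.1% of genes with all 8 oocytes, for 64.2% without fresh oocyte 3 and for 33.4% without vitrified oocyte 1. Leaving out both oocytes, an alternative added after the data were seen, gave 0 genes called and intervals between −1 and 1 for 27.2% of genes in place of 18.9%.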

How the data were processed

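Values were read from the table of counts that the authors deposited; per the submitters' processing notes, reads went through HISAT2 and featureCounts on mm10, and no version or setting is recorded there. The values of these 8 oocytes are whole, as raw counts are, while those of other oocytes in the table resemble expected or estimated counts of the authors and were not used here. After 27 exact repeats of 13202 entries were removed, 13175 genes remained. Each gene in it has a total of at least 10 over metaphase II oocytes, while 376 have no count in any GV oocyte. It holds 0 mitochondrially encoded genes. Columns without a sample numbered 0.

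Genes were filtered with filterByExpr (at least 10 counts, 15 in total), scaled by TMM and tested with the quasi-likelihood F test of edgeR 4.0.16 in R 4.3.3 (two-sided, no covariate, Benjamini-Hochberg at 0.05). CPM uses TMM-scaled library sizes, and log2 CPM a prior count of 2. Alternatives used DESeq2 1.42.0 and limma 3.58.1. Transcript length and GC content came from GENCODE M21 on GRCm38 and matched 10722 of 10831 genes tested. Libraries held 10357543 or more counts each. The part of counting error in the spread between oocytes was not measured, and it is larger for scarce genes.

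Genes named are the 12 with an established symbol and the smallest p in each direction and those with the widest gap between groups (both at a mean of at least 4 log2 CPM), the list members of smallest p at any level, genes with the widest range and those with the narrowest interval (both at 6 or above), and genes fixed by name; some are left out for brevity or are not reported here. A few list members are named besides for their values (Rpl39, Rpl4, Inha, Mcl1). Members and lists were chosen with earlier results of these data known, so lists are described by counts and medians and were not tested.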

Additional observations from a re-analysis of the deposited data

Results flagged for a closer look

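An oocyte was singled out where its gap to the nearest of the other 3 of its group, divided by the range of the 4, was above Dixon's 95% critical value. This measure is relative to the range, so the difference in level can be small, as it was for Bmp6, Micos10, Tial1 and Eif4e3. This was so 44 times in 312 groups of 4 values, which cover the library measures, the summed levels of the tested members of the gene lists and the named genes. Chance alone singles out about 1 in 20 such groups where values are normally distributed. CPM need not be, so the chance rate here is not known. Lists and genes also share libraries and members, so the counts are not independent. No explanation was tested. By single genes, fresh oocyte 2 lay apart below the other 3 for Srp54c (21.8 CPM). By single genes, fresh oocyte 3 lay apart above the other 3 for Mad2l1 (1129 CPM), Casp8 (72.9 CPM), Cct8 (514 CPM) and Micos10 (374 CPM). By single genes, fresh oocyte 3 lay apart below the other 3 for Dnmt3a (44.9 CPM). In fresh oocyte 3 the summed level was the highest of its group, and apart by this measure, for oocyte identity and germ cell factors (55440 CPM), spindle, kinetochore and cohesion (18350 CPM), calcium handling for egg activation (9417 CPM), surface epithelium cell markers (318 CPM) and mitochondrial carriers (1638 CPM). In fresh oocyte 3 the summed level was the lowest of its group, and apart by this measure, for cAMP control of meiotic arrest (999.6 CPM). By single genes, fresh oocyte 4 lay apart above the other 3 for Zp3 (3615 CPM), Bmp6 (82.98 CPM) and Padi6 (3220 CPM). In fresh oocyte 4 the summed level was the highest of its group, and apart by this measure, for zona pellucida and sperm binding (8087 CPM) and endoplasmic reticulum stress (4122 CPM). By single genes, vitrified oocyte 1 lay apart above the other 3 for Ranbp2 (55.2 CPM), Xlr3c (319 CPM), Xlr3b (306 CPM), Srp54c (193 CPM), Nt5m (65.01 CPM), Zfp638 (184 CPM), Nlrp9a (1257 CPM), Dppa3 (21390 CPM), Ccnb2 (864 CPM), Pttg1 (15320 CPM), Fbxw24 (16640 CPM), Sycp3 (1058 CPM) and Tial1 (40.2 CPM). By single genes, vitrified oocyte 1 lay apart below the other 3 for Padi6 (615 CPM) and Ddit3 (135 CPM). In vitrified oocyte 1 the summed level was the highest of its group, and apart by this measure, for DNA methylation (23780 CPM), calcium handling for egg activation (14610 CPM), small RNA and transposon silencing (10720 CPM), mitochondrial ribosomal proteins (18400 CPM) and complex I (10330 CPM). In vitrified oocyte 2 the summed level was the highest of its group, and apart by this measure, for granulosa and cumulus cell markers (431 CPM). By single genes, vitrified oocyte 3 lay apart below the other 3 for Cpox (4.38 CPM) and Ndufs5 (198 CPM). By single genes, vitrified oocyte 4 lay apart above the other 3 for Eif4e3 (578 CPM) and Mrps7 (332 CPM). By single genes, vitrified oocyte 4 lay apart below the other 3 for Bmp6 (79.7 CPM). In vitrified oocyte 4 the summed level was the highest of its group, and apart by this measure, for subcortical maternal complex (18640 CPM).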

How the results depend on the processing

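With n = 4 a side and a wide spread between oocytes, intervals within 1 log2 unit were reached mainly by well-expressed genes, so smaller differences were not detectable in most genes. Counts of genes called stayed at 0 under 17 of 18 alternatives (scaling by DESeq2 size factors or upper quartile, the DESeq2 test, limma-voom, other filters, each oocyte left out, fresh oocyte 3 and vitrified oocyte 1 left out together, and GC content taken off; the last pair was added after the data were seen), where unadjusted p under 0.05 gave 133 to 360 genes, or 120 with at least 10 CPM in at least 4 oocytes and 134 with a block on the title number. Whether the numbers pair the oocytes is not known. Same-numbered oocytes correlated in their deviations at 0.13, −0.03, −0.38 and 0.18 by title number, and at −0.17, 0.08 and 0.31 for library numbers 82, 83 and 84. With so few pairs, and single oocytes standing apart, these values cannot decide whether same-numbered oocytes shared a mouse or culture. The replicate block on the title number called 0 genes and the block on the library number, with 3 oocytes a group, called 1, Bfsp1 (log2 fold change 8.02, adjusted p = 0.0041), whose CPM was 63.5, 0.10, 0.57 and 0.46 in fresh oocytes 1 to 4 and 74.5, 83.1, 103.6 and 0.06 in vitrified oocytes 1 to 4. That fit both drops an oocyte from each group and adds the block, and their parts in the call were not separated. The share of genes with an interval between −1 and 1 was 20.9% under limma-voom, 16% under no filter on low counts, 28.4% under CPM of at least 10 in at least 4 oocytes, 13.9% under replicate block on the title number, 0.491% under replicate block on the library number, 3 oocytes a group and 25.2% under GC content taken off, and 9.9% to 27.2% with 1 oocyte or both left out. Genes whose groups did not overlap numbered 123 with at least 10 CPM in at least 4 oocytes and 366 to 577 with 1 oocyte left out, where fewer values have to be kept apart. Genes with a larger SD in vitrified oocytes were 50.5% at that level, and 33.4% to 64.2% with 1 left out. Of 36 list medians, 19 kept their sign under every alternative and 17 did not. Medians that moved by more than the spread between oocytes were 0.33 for nuclear pore and import (the block on the title number), −0.28 for antioxidant and glutathione (the block on the library number), 0.091 for apoptosis and DNA damage response (the block on the library number), −0.23 for mitochondrial shape and biogenesis (the block on the library number), −0.28 for mitochondrial carriers (the block on the library number) and 0.22 for DNA replication (GC content taken off). With 1 oocyte or both of those named above left out the ranges were 0.099 to 0.33 for nuclear pore and import, −0.089 to 0.17 for maternal mRNA storage and decay, 0.093 to 0.27 for pyruvate, citric acid cycle and glucose, −0.12 to 0.058 for apoptosis and DNA damage response, 0.0052 to 0.21 for DNA replication, −0.24 to −0.042 for calcium handling for egg activation, −0.38 to 0.070 for sterol and lipid droplet and −0.18 to 0.12 for mitochondrial carriers. Of 108 named genes, 75 kept their sign throughout, and 0 passed an adjusted test in any alternative. Scaling by DESeq2 size factors turned the sign of Pde3a (0.0033). Upper-quartile scaling turned the sign of Bmp15 (−0.0068), Cirbp (−0.025) and Mrps7 (−0.0038). The DESeq2 test turned the sign of Pde3a (0.0032). limma-voom turned the sign of Cirbp (−0.026), Dnmt3l (0.033) and Manba (0.13). Keeping low counts turned the sign of Pde3a (0.0082). The filter at 10 CPM turned the sign of Cirbp (−0.0041). The block on the title number turned the sign of Cirbp (−0.097) and Dnmt3l (0.019). The block on the library number turned the sign of Cirbp (−0.45), Mrps7 (−0.027) and Pde3a (0.33). Taking off GC content turned the sign of Bax (0.084), Bmp15 (−0.082), Dnmt1 (0.010), Dnmt3l (0.070) and Ybx2 (0.036). With 1 oocyte or both left out the sign turned for Cirbp (−0.18 to 0.38), Sod2 (−0.031 to 0.34), Dnmt3l (−0.20 to 0.27), Mrps7 (−0.038 to 0.083), Pde3a (−0.22 to 0.32), Trp53 (−0.26 to 0.19), Ybx2 (−0.64 to 0.024), Bax (−0.24 to 0.080), Btg4 (−0.33 to 0.30), Ddit3 (−0.039 to 0.74), Dnmt3a (−0.070 to 0.27), H1f8 (−0.29 to 0.12), Hspa5 (−0.29 to 0.43), Bmp15 (−0.12 to 0.17), Dnmt1 (−0.41 to 0.21), Mos (−0.37 to 0.20), Padi6 (−0.41 to 0.32), Tle6 (−0.48 to 0.24), Zp1 (−0.46 to 0.061), Zp3 (−0.55 to 0.022), Ccnb1 (−0.060 to 0.96), Dppa3 (−0.69 to 1.16), Fbxw24 (−0.27 to 1.61), Khdc3 (−0.45 to 0.18), Ldhb (−0.085 to 1.14), Mad2l1 (−0.21 to 1.43), Manba (−0.92 to 0.22), Prdx1 (−0.079 to 0.36), Psmd1 (−0.0077 to 0.12), Pttg1 (−0.35 to 1.09), Sycp3 (−0.92 to 2.12), Rbm3 (−0.48 to 0.14) and Zp2 (−0.084 to 0.54). The cause was not tested.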
